A study of Mus musculus with 40 samples.

Results

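Mammary glands taken 5 months after an oncogene had been switched on (group 5M, 5 arrays) were compared with 10 control glands. The control glands came from mice without the oncogene or were taken before its activation. These 15 arrays were taken by their group labels, out of 40 arrays in 8 groups of 5, with 1 mouse per array. The groups compared and the gene lists were chosen with earlier results of these data known. The oncogene is the early region of the virus SV40 (large T and small t antigen), carried by WAP-TNP8 mice behind the promoter of the milk protein gene Wap and activated by lactation. The controls were 5 glands of wild type BalbC mice (wild_type) and 5 glands of WAP-TNP8 mice before activation (before_activation), which carry the transgene. Ages are not given in the sources used here. Neighbouring groups were used for comparison: WAP-TNP8 glands at 2 months (2M) and 4 months (4M) after activation, and invasive tumours of WAP-TNP8 mice. Mice of 5M had lactated, whereas the study describes the before_activation mice as taken before lactation. The wild type mice are not labelled as having lactated, and no group is labelled as wild type after lactation. The effect of the active transgene and that of an earlier lactation thus cannot be told apart against these controls. The Wap promoter works in the secretory epithelium, which is 1 of several tissues in these whole glands, and no value for the transgene's own transcript is used here.

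Large T antigen binds the Rb family of proteins, which hold back the E2F transcription factors, and it also binds p53. Release of E2F lets the genes of DNA replication and mitosis be transcribed, and tissue with active T antigen is known for proliferation. The mammary gland outside pregnancy consists mostly of fat with sparse ducts, whose luminal cells either sense hormones through the oestrogen receptor or belong to the lineage that forms milk secreting alveoli, and it returns to that state by involution after lactation.

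Levels are given as log2 of the deposited intensities (GCRMA summaries). Differences are 5M minus the mean of the 10 controls, with the standard error (±) of the fit in limma, and adjusted p-values are Benjamini-Hochberg values over 45037 probe sets. Each gene is represented by 1 probe set, which left 18194 genes. A gene with a change of 5-fold or more and an adjusted p of 0.01 or less is referred to as called. A gene with an adjusted p of 0.05 or less is counted as higher or lower. Values of single arrays of 5M are listed for replicates 1 to 5 in that order, and those of the controls as lowest, median and highest. The p-values measure the spread between separate mice.

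Some features of the arrays bear on what follows. The Dap labelling spike-in, a bacterial control transcript, fell into a high and a low class (midpoint 8.02 on the log2 scale). It was high on 1 of 5 arrays of 5M (replicate 1), on 7 of the 10 controls, and on 5 of 5 arrays of 2M, of 4M and of the tumours. Its mean was -3.19 in 5M relative to the controls, with an exact two-sided permutation p = 0.0713 (adjusted p = 0.0998 over 9 array measures, where 0.000333 was the smallest p that the 3003 splits allow). The spike-ins Lys (-1.81), Phe (-2.48) and Thr (-1.98) were lower too. Their permutation p were 0.0473, 0.028 and 0.0333, each with an adjusted p of 0.0998. T cell genes were abundant on replicate 1 of 5M (mean level of the list 8.84, others 3.96 to 5.9) and on 3 controls, and skeletal muscle genes on replicates 2 and 4 of 5M (12.47 and 12.91, others 3.44 to 6.16) and, among the controls, most on before_activation replicate 4 (10.77). Finally, before_activation replicate 1 had raised levels of several milk and cell division genes. In such bulk samples fewer cells of a type and less RNA per cell cannot be told apart.

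Among all genes, 1589 (8.73%) were higher and 1461 (8.03%) lower in 5M than in the controls. Of these, 250 (1.37%) were called higher and 14 (0.0769%) called lower. All 5 arrays of 5M stood above all 10 controls for 743 genes (4.08%) and below all of them for 504 (2.77%). Over probe sets, 371 were called higher and 19 lower, with 2746 higher and 2479 lower at the looser threshold. After centring each array on its median the latter split was 2001 to 3141. The median difference over all genes was 0.02. Of the genes called higher, 230 had all 5 arrays above all controls, as 9 of the 14 called lower had all 5 below. Among the called genes 157 have further probe sets, 259 in all. Of these probe sets 124 differed in the direction of the call at an adjusted p of 0.05 or less in limma, and 0 in the opposite direction. The remaining ones did not pass. A fit within the low Dap class alone used 4 arrays of 5M and 3 controls. There 247 of the 264 called genes differed in the same direction at an adjusted p of 0.05 or less in limma. Of all 18194 genes, 1099 were higher and 574 lower in that fit. Without the arrays rich in lymphocyte or muscle genes (2 arrays of 5M against 6 controls) 101 of the 264 kept their direction at that threshold. Of all genes 331 were higher and 143 lower there. Both fits reuse arrays on which the genes were called, so their agreement is no independent evidence. The mean of the controls lay below 5 for 117 called genes (44.3%), as did 51.8 to 53.7% of all probe sets on these arrays, so that the size of their change depends on the low end of the scale.

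The 3 largest differences of all genes were those of caseins. Csn2, the gene of beta-casein, stood at 15.73, 15.70, 16.37, 16 and 15.76 in 5M and at 2.24, 2.33 and 10.95 in the controls. The high control was before_activation replicate 1, the next being at 2.5, and no array of 5M overlapped with the controls. The difference was 12.71 ± 1.2 (adjusted p = 3.62e-05, limma). Csn1s1 (alpha-S1-casein; 12.16 ± 1.16, adjusted p = 3.89e-05) and Csn1s2a (an alpha-S2-casein; 11.80 ± 0.77, adjusted p = 1.23e-06), further caseins of the milk micelle, had the same control standing out, at 10.87 and 8.36, with the next highest at 3.3 and 3.83. Csn1s2a has 4 further probe sets, whose differences ranged from 0.04 to 11.36. Csn1s2b (5.85 ± 0.27, adjusted p = 3.04e-08) and Csn3, the kappa-casein (3.76 ± 0.38, adjusted p = 5.64e-05), also rose, and all 5 casein genes lie on chromosome 5.

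Lalba, the alpha-lactalbumin needed for lactose synthesis, did not share this outlying control. Its levels were 8.82, 8.4, 11.03, 9.86 and 9.86 in 5M against 2.8, 2.86 and 3.97 in the controls, a difference of 6.58 ± 0.34 (adjusted p = 1.43e-07). Wap, the whey acidic protein whose promoter drives the transgene, stood at 7.46, 8.14, 11.91, 8.69 and 7.61 against 4.4, 4.55 and 4.8. All arrays were higher than the controls, and replicate 3 was well above the other arrays of 5M. The difference of Wap was 4.18 ± 0.54 (adjusted p = 0.00028), and within the low Dap class 4.54 with an adjusted p of 0.0592.

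Secretory genes outside the caseins rose with them. Pigr, which moves antibodies through epithelial cells into the milk, had 10.29, 11.58, 13.05, 12.14 and 11.36 against 2.68, 2.77 and 4.67, a difference of 8.57 ± 0.40 (adjusted p = 4.16e-08). Car6, a secreted carbonic anhydrase, differed by 9.87 ± 0.57 (adjusted p = 3.43e-07) and was lowest on replicate 1 (9.75, others 12.58 to 13.89). Olah, the thioesterase that ends fatty acid synthesis at medium chain length, was at 10.17 on replicate 3 and between 4.94 and 6.38 on the other arrays of 5M (controls 2.3 to 2.55). Replicate 3 thus carried much of the difference of Olah, 4.00 ± 0.63 (adjusted p = 0.00112, within the low Dap class 0.131). Ltf, the iron binding lactoferrin (2.96 ± 0.54), and Muc15, a mucin of the milk fat globule membrane (3.24 ± 0.35), reached 13.99 and 13.14 in the controls and were still higher on every array of 5M. Of 16 measured milk protein genes 14 were higher and 12 called, none was lower, and their median difference was 4.09.

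**Figure D1:**
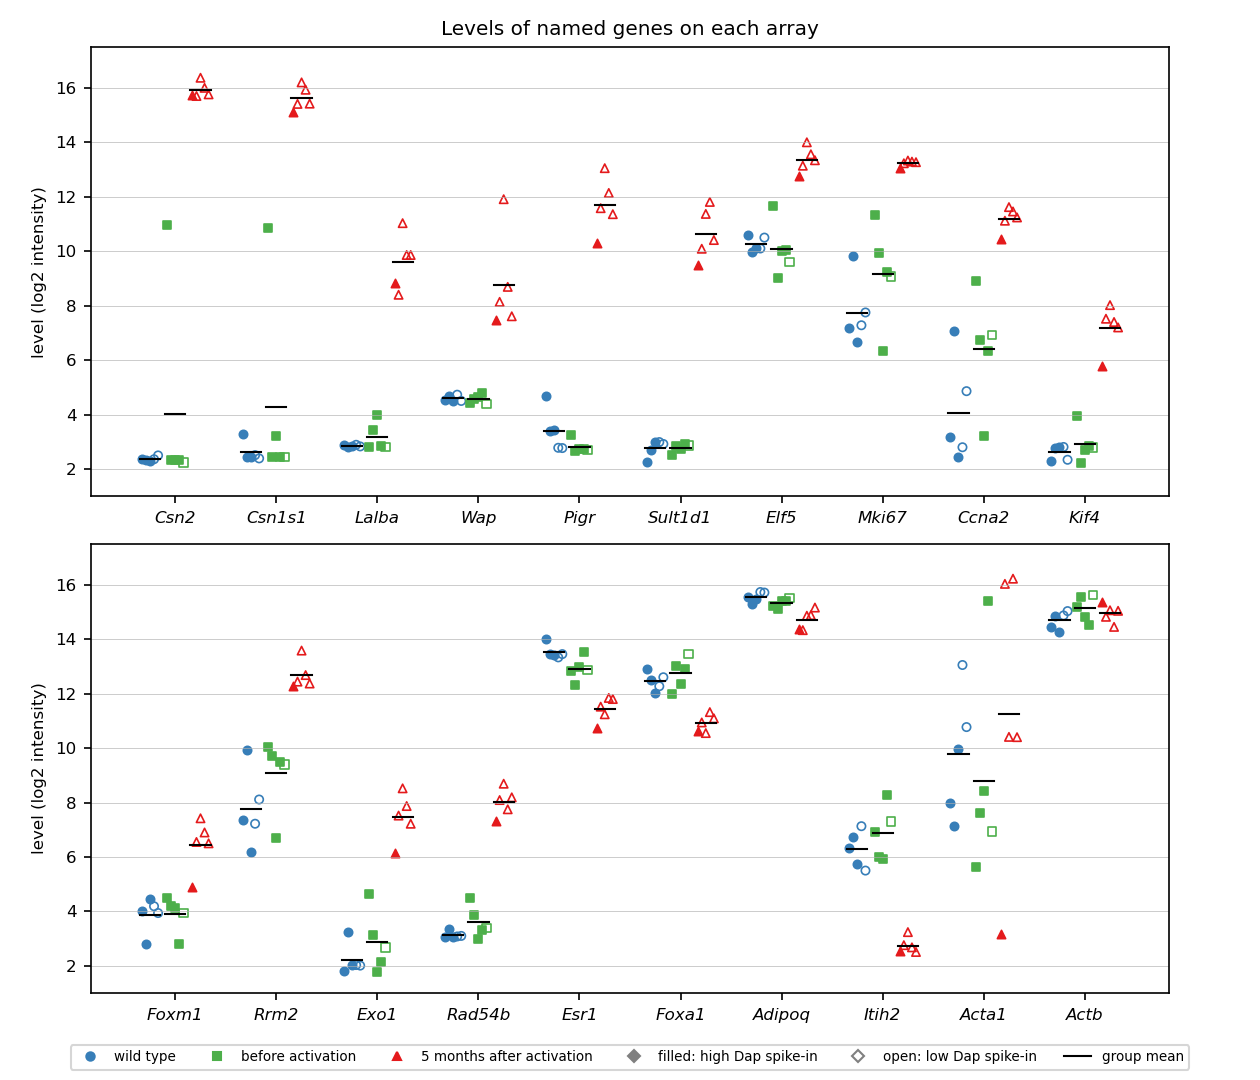
Levels of 20 genes (log2 intensity) on each of the 15 arrays, with wild type as circles, before activation as squares and 5 months after activation as triangles, bars for group means, and filled or open symbols for a high or low Dap spike-in. Csn2 shows 1 control at 10.95 with all others at or below 2.5, Itih2 is lower on all arrays of 5M, Acta1 scatters from 3.17 to 16.22 within 5M, and Actb overlaps between all groups.

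Fewer of the regulators and membrane proteins of the secretory cell passed. Elf5, a transcription factor of the alveolar lineage, stood at 12.75, 13.14, 14, 13.56 and 13.34 against 9.02, 10.07 and 11.66 (3.2 ± 0.33, adjusted p = 6.44e-05). It was the 1 called gene of 9 measured in the list of Stat5 signalling and alveolar fate, of which 3 were higher and none lower (median 0.71). In the milk fat globule list 4 of 9 were higher (median 0.97), 2 of them called: the mucin Muc1, and Btn1a1, a butyrophilin of the globule membrane (2.88 ± 0.55, adjusted p = 0.0035), which has 2 other probe sets at 0.06 and 0.10. Mfge8, which marks dying cells for uptake, differed by 0.97 (adjusted p = 0.00248).

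Of the genes outside the lists, Sult1d1, a sulfotransferase, had the smallest p of all. Its levels were 9.5, 10.09, 11.37, 11.81 and 10.41 against 2.26, 2.84 and 2.99 in the controls, so that the lowest array of 5M lay far above the highest control. The difference was 7.86 ± 0.29 with an adjusted p of 4.09e-09, and a second probe set of the gene differed by 4.59. Apol7a, of the apolipoprotein L family, differed by 6.57 ± 0.54 (adjusted p = 1e-05), Lrr1 by 5.96 ± 0.61 (adjusted p = 5.97e-05) and Timd2, a ferritin receptor in the mouse, by 5.73 ± 0.68 (adjusted p = 0.000167).

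Genes of mitosis formed the largest group of calls among the lists. Of 54 measured, 52 were higher, 48 of them called, and none was lower. All 5 arrays of 5M were above all controls for 52 members, and the median difference was 4.14. Mki67, the antigen used to score proliferation, stood at 13.04, 13.23, 13.33, 13.29 and 13.27 in 5M against 6.35, 8.41 and 11.32 in the controls. The arrays of 5M lay within 0.29 of each other while the controls spread widely, with before_activation replicate 1 again the highest. Its difference was 4.77 ± 0.72 (adjusted p = 0.000828). Ccna2, the cyclin of S phase and G2, had 10.46, 11.12, 11.62, 11.46 and 11.24 against 2.45, 5.6 and 8.92 (5.94 ± 0.99, adjusted p = 0.00155).

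Some motor and spindle proteins had tighter controls. Kif4, a chromosome-bound kinesin, stood at 5.8, 7.52, 8.02, 7.4 and 7.2 against 2.23, 2.79 and 3.93 and differed by 4.43 ± 0.32 (adjusted p = 3.86e-06), the smallest p of the list. Mad2l1, a spindle checkpoint protein (2.71 ± 0.22, adjusted p = 9.78e-06), and Cenpe, a kinetochore motor (5.16 ± 0.52, adjusted p = 5.71e-05), were likewise higher on all arrays. Ncapg2, a condensin subunit (1.91, adjusted p = 4.38e-05), was higher but stayed under 5-fold. Within the low Dap class 52 members were higher (median 4.73), and without the arrays rich in lymphocyte or muscle genes 14 were (median 4.82), in a fit with 2 arrays of 5M.

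DNA replication genes rose less steeply. Of 40 measured members 37 were higher, 18 called and none lower, with a median of 2.24. Rfc4, a clamp loader subunit, stood at 9.82, 10.76, 10.98, 10.76 and 10.14 against 6.82, 7.87 and 8.59 (2.64 ± 0.26, adjusted p = 4.33e-05). Mcm4, of the replicative helicase, was at 12.78, 12.78, 13.40, 12.78 and 12.51 against 9.17, 10.51 and 10.81 (2.53 ± 0.24, adjusted p = 3.89e-05). Both separated 5M from every control. Clspn, a checkpoint adaptor at the fork (4.68 ± 0.56, adjusted p = 0.000169), and the ligase gene Lig1 (2.58 ± 0.28, adjusted p = 9.87e-05) were also called. Among DNA repair genes 20 of 28 were higher, 8 called and none lower (median 1.35). Rad54b, of homologous recombination, had 7.31, 8.09, 8.69, 7.75 and 8.19 against 2.97, 3.2 and 4.48, a difference of 4.64 ± 0.26 (adjusted p = 2.32e-07).

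Promoters of a few of these genes are shown because milk and cell division genes are known to be read by different factors: Stat5 in secretory cells, E2F in replication genes, and, in mitotic genes, complexes that act through a CHR element and CCAAT boxes. Each runs from 250 bases before to 50 bases after the start (RefSeq, GRCm38.p6), written 5′ to 3′ on the strand of the gene, with matches to these motifs in capitals. Pigr is on chr1:130826434-130826733 (plus strand), Rfc4 on chr16:23127681-23127980 (minus strand) and Kif4 on chrX:100625815-100626114 (plus strand).
Pigr: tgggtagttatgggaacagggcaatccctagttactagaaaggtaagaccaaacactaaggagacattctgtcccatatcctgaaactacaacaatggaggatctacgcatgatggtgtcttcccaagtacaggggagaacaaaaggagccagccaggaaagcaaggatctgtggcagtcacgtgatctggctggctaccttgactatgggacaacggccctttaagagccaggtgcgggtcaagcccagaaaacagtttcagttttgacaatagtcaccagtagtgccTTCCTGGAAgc
Rfc4: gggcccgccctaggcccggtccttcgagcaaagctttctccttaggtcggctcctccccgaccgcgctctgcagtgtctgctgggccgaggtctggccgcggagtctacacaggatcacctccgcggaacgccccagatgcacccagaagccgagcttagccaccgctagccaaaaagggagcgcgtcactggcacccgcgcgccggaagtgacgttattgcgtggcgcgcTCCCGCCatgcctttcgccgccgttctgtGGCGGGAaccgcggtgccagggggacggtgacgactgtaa
Kif4: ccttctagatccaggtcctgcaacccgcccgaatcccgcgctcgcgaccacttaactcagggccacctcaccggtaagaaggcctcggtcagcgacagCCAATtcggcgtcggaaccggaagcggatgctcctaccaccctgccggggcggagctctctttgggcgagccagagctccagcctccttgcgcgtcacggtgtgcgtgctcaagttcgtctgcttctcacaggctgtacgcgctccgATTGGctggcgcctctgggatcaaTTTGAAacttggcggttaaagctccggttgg
In Pigr the capitals mark a match to TTCNNNGAA, the Stat5 site, at positions 290 to 298 counted from the first base shown. Rfc4 held the E2F letters GGCGGGA once on each strand, at positions 232 to 238 and 261 to 267. Kif4 held a CCAAT box on each strand (99 to 103 and 246 to 250) and the CHR letters TTTGAA (270 to 275). Lig1, with the first of its 3 listed starts, held 1 match to TTCNNNGAA, whereas the promoters of Lalba and Mad2l1 held no match to any of the motifs.

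Searched on both strands, TTCNNNGAA was in 5 of 13 milk protein promoters in the table (38.5%) and in 8.47% of all 27025 promoters of the same length. The CHR letters were in 33 of 45 mitosis promoters (73.3%), in 6 of 32 replication promoters (18.8%) and in 18.1% of all. CCAAT was in 71.1% of the mitosis, 53.1% of the replication and 37.9% of all promoters. E2F letters (GGCGGGA or GCGCGAAA) were in 13 of the mitosis promoters (28.9%), in 14 of the replication promoters (43.8%) and in 11.6% of all. A match describes the letters of the window and not the binding of a factor.

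Of the E2F and Rb regulators, 12 of 31 measured genes were higher, 3 of them called, and 2 lower (median 0.49). The called ones were E2f8, a repressor of the E2F family (3.32 ± 0.51, adjusted p = 0.000958), Uhrf1, a reader of methylated DNA (4.34 ± 0.69, adjusted p = 0.00115), and Ccne2, the cyclin E2 (2.83 ± 0.32, adjusted p = 0.000112). Rbl1, the Rb family member p107, rose by 1.5 ± 0.23 (adjusted p = 0.000939). Of 21 genes listed as targets of p53, Apaf1, of the apoptosome (0.74, adjusted p = 0.042), was higher, and Phlda3 (-1.79) and Zmat3 (-0.45) were lower. The other 18 did not pass, and the median was 0.27.

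Of the genes that the study picked as markers 6 were analysed here, which are not all of them. These 6 were called (median 4.31). Since the study chose them on arrays of this series, their direction is no independent evidence. Muc1, the mucin of the apical membrane, stood at 10.59, 11.51, 11.86, 10.87 and 11.26 against 7.09, 7.71 and 9.59 (3.2 ± 0.41, adjusted p = 0.000277). Rrm2, the regulated subunit of ribonucleotide reductase (4.25 ± 0.66), Nusap1, a spindle protein (4.38 ± 0.73), and Depdc1a (4.94 ± 0.42) had no array of 5M within the range of the controls. Exo1, a nuclease of mismatch repair, had 6.13, 7.52, 8.52, 7.87 and 7.22 against 1.78, 2.08 and 4.63 (4.9 ± 0.47, adjusted p = 4.25e-05). Foxm1, a transcription factor of late cell cycle genes, came closest to the controls, with 4.91, 6.55, 7.42, 6.9 and 6.5 against 2.82, 4.06 and 4.48. Its difference was 2.56 ± 0.38 (adjusted p = 0.000702), with 3 other probe sets between 0.03 and 0.69.

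Luminal epithelial genes rose by smaller amounts. Of 25 measured 16 were higher, 2 called and none lower (median 1.25). With before_activation alone as controls 9 were higher, beside 812 of all 18194 genes. Without the arrays rich in lymphocyte or muscle genes 2 were higher, beside 331 of all genes. Epcam, an adhesion protein of epithelia, was at 14.64, 15.01, 15.29, 14.89 and 14.98 against 12.99, 13.63 and 14.36 (1.34 ± 0.20, adjusted p = 0.000767). Cdh1, the E-cadherin, differed by 1.65 ± 0.23 (adjusted p = 0.000427), and the called members were Ehf, an epithelial Ets factor (2.75 ± 0.42), and the tight junction claudin Cldn1 (2.34 ± 0.34). The keratin Krt8 differed by 0.78 with an adjusted p of 0.158. None of 19 measured genes of basal and myoepithelial cells passed (median -0.01), and their smooth muscle actin, Acta2, differed by 0.09 (adjusted p = 0.694).

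Hormone sensing luminal cells were among the groups with lower genes. Esr1, the oestrogen receptor, stood at 10.75, 11.52, 11.24, 11.84 and 11.80 in 5M against 12.32, 13.38 and 14.01 in the controls, with no overlap (-1.79 ± 0.25, adjusted p = 0.000427), while 2 other probe sets differed by -0.47 and 0.02. Foxa1, the factor that opens chromatin for the receptor, was at 10.64, 10.94, 10.55, 11.32 and 11.09 against 11.99, 12.55 and 13.46 (-1.69 ± 0.23, adjusted p = 0.00035). Tbx3, a T-box factor of mammary development (-1.47 ± 0.24, adjusted p = 0.00126), and Slc5a5, the iodide transporter (-2.34 ± 0.60, adjusted p = 0.0204), were also lower. In all, 4 of 11 measured members were lower and none higher, the median being -1.42.

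**Figure D2:**
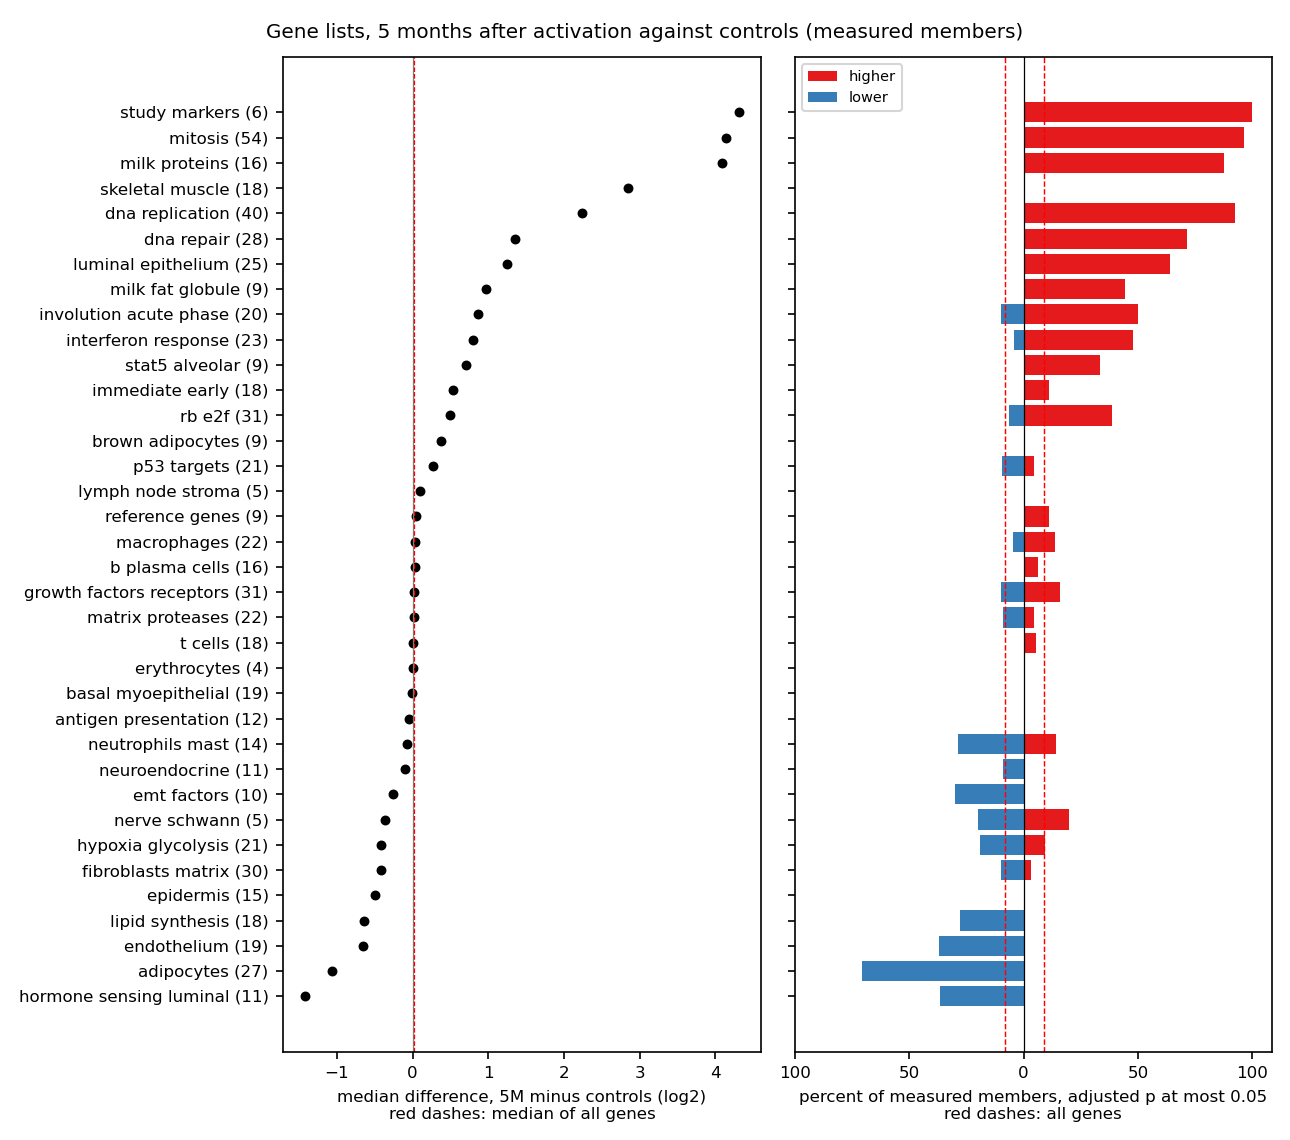
Left, the median difference (5M minus controls, log2) of each gene list, with the number of measured members in brackets; right, the percent of measured members that were higher (red) or lower (blue) at an adjusted p of at most 0.05, with dashes for all genes (8.73% and 8.03%). Study markers, mitosis and milk proteins have medians of 4.31, 4.14 and 4.09 with most members higher, skeletal muscle has a median of 2.85 with no member past the threshold, and adipocytes have 19 of 27 members lower.

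Adipocyte genes were lower by small amounts: 19 of 27 were lower, 1 of them called, none was higher, and the median was -1.06. Cidec, a lipid droplet protein, was at 13.30, 13.45, 13.85, 13.69 and 14.14 against 14.76, 15.43 and 15.91 (-1.66 ± 0.19, adjusted p = 0.000115). Adipoq, the gene of adiponectin, stood between 14.33 and 15.16 in 5M and between 15.11 and 15.73 in the controls, with a narrow overlap. The called member was Slc7a10, an amino acid transporter of fat cells (-2.43 ± 0.35, adjusted p = 0.000611). Within the low Dap class 8 members were lower, and without the arrays rich in lymphocyte or muscle genes 2, with medians of -1.29 and -1.03. With before_activation alone as controls 9 were lower, beside 557 of all 18194 genes. With all 40 arrays in one fit 12 were lower, beside 2819 of all 45037 probe sets. Lipid synthesis genes had 5 of 18 lower, among them Acaca, the acetyl-CoA carboxylase (-1.1, adjusted p = 0.0119), and none higher (median -0.64). None of them was lower within the low Dap class (median -0.63).

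The few called genes that were lower belonged to several functions. Itih2, a hyaluronan-linked inhibitor chain, stood at 2.55, 2.76, 3.24, 2.68 and 2.51 against 5.5, 6.54 and 8.27, so that it was near the low end of the scale on all arrays of 5M (-3.84 ± 0.38, adjusted p = 5.02e-05). Hcar2, the niacin receptor of fat cells, was at 5.98, 5.94, 6.27, 6.59 and 6.83 against 8.11, 8.58 and 9.4 (-2.38 ± 0.22, adjusted p = 2.98e-05). Nr1d1, the clock repressor Rev-erb alpha, varied within 5M from 3.7 to 7.46 (-2.86 ± 0.57, adjusted p = 0.00496), and the time of day of sampling is not given in the sources used here. Cbs, of cysteine synthesis (-2.47 ± 0.37), Sod3, the extracellular superoxide dismutase (-2.4 ± 0.36), the sialyltransferase St3gal4 (-2.44 ± 0.41), the homeobox gene Hoxa7 (-2.53 ± 0.38) and Id1, an inhibitor of helix-loop-helix factors (-2.38 ± 0.38), had no overlap with the controls. Trpc6, a cation channel (-3.01 ± 0.65), Acsm5, a medium-chain acyl-CoA synthetase (-2.74 ± 0.49), and Pon1, a paraoxonase (-2.5 ± 0.51), overlapped with them on at least 1 array.

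Some vascular genes were lower, and stromal lists were mixed. Over all genes 8.73% were higher and 8.03% lower. The counts of lower members were near that share for fibroblasts and matrix, matrix proteases, and growth factors and receptors. The mean level of the endothelium list was 8.98, 9.13, 9.09, 8.61 and 9.11 in 5M and 9.34 to 9.81 in the controls, with no overlap. In endothelium 7 of 19 were lower and none higher (median -0.65), such as Pecam1, a junction protein of vessels (-1.42 ± 0.31, adjusted p = 0.00889), and Egfl7 (-0.60 ± 0.10, adjusted p = 0.0016). The count of lower endothelial genes was 4 within the low Dap class, by the Welch test and with wild_type alone as controls, and 2 with before_activation alone. Of all 18194 genes 574 were lower within the low Dap class, 1504 with wild_type alone and 557 with before_activation alone. By the Welch test 1893 of all 45037 probe sets were lower. Fibroblast and matrix genes had 3 of 30 lower, the collagen VI chains Col6a1 (-1.05), Col6a2 (-1.04) and Col6a3 (-0.96), and 1 higher, Ccn2 (1.32, adjusted p = 0.0433; median -0.42). Of 22 matrix proteases and inhibitors (median 0.02), Mmp12, the macrophage elastase, was called, at 5.61, 9.11, 6.62, 8.38 and 7.57 against 3.01, 3.49 and 5.07 (3.75 ± 0.49, adjusted p = 0.000299). Mmp19 (-1.56) and Timp3 (-1.06) were lower. Factors of epithelial-mesenchymal transition had 3 of 10 lower, Zeb1 (-0.76), Twist1 (-1.03) and Twist2 (-1.37), and none higher (median -0.26). Growth factors and receptors had 5 of 31 higher, with Tgfb3 (1.15 ± 0.20) and Erbb2 (1.08), and 3 lower, namely Igf1 (-1.19 ± 0.19), Fgfr2 (-1.07 ± 0.19) and the Wnt target Axin2 (-0.95 ± 0.19; median 0.02).

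Genes of the acute phase and of involution, the regression of the gland after weaning, gave 10 of 20 higher, 2 called, and 2 lower (median 0.87). Saa1, a serum amyloid, stood at 5.2, 8.05, 8.22, 7.42 and 8.32 against 2.48, 2.86 and 4.97 (4.22 ± 0.55, adjusted p = 0.00031). Saa3 was more uneven, at 7.81, 11.70, 7.26, 7.16 and 10.66 against 4.35, 5.87 and 7.01. Its difference of 3.13 ± 0.71 had an adjusted p of 0.00993 and of 0.355 within the low Dap class. Lcn2, an iron-scavenging lipocalin (2.28 ± 0.29, adjusted p = 0.00027), Cd14, a receptor for bacterial endotoxin (1.54 ± 0.22), and Stat3, a transcription factor of involution (0.81 ± 0.11, adjusted p = 0.000485), rose as well. Interferon-response genes were higher for 11 of 23 and lower for 1 (median 0.80). Oas2, which senses viral RNA, was at 9.03, 10.01, 10.42, 9.26 and 9.22 against 6.37, 7.62 and 8.51 (1.98 ± 0.34, adjusted p = 0.00169), and Irf9 differed by 0.80 ± 0.18. The number of interferon-response members higher was 5 without replicate 2 of 5M, 6 without replicate 3 of 5M, 5 by the Welch test, 3 with all 40 arrays in one fit, 5 with the Dap level as covariate and 2 with before_activation alone as controls. Over all 45037 probe sets the counts higher, in the same order, were 1991, 2076, 2121, 3321, 2032 and 1395. The main fit had 2746. No interferon-response member passed within the low Dap class (median 0.69, Oas2 adjusted p = 0.0506) or without the arrays rich in lymphocyte or muscle genes (median 0.94).

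Immune cell lists were mixed, beside 8.73% higher and 8.03% lower over all genes. Among mast cell proteases, Tpsb2 stood at 6.69, 6.61, 6.94, 6.77 and 6.92 against 7.57, 9.14 and 9.92 (-2.13 ± 0.31, adjusted p = 0.000565), and Mcpt4 (-2.01 ± 0.27), Cma1 (-0.99 ± 0.16) and Cpa3 (-0.84 ± 0.20) were lower too, with no overlap for any of them. In the same list of 14 genes (median -0.07) the neutrophil genes S100a8 (2.76 ± 0.56, adjusted p = 0.00545, called) and S100a9 (1.88, adjusted p = 0.0101) were higher, with adjusted p of 0.232 and 0.279 within the low Dap class. Macrophage genes had 3 of 22 higher and 1 lower (median 0.03). T cell genes had 1 of 18 higher (Gzmb, 0.93 ± 0.21; median 0.01) and B and plasma cell genes 1 of 16, Jchain, which joins secreted immunoglobulins (median 0.03). Jchain stood at 14.24, 13.53, 14.20, 13.97 and 14.05 against 8.27, 11.34 and 13.34 (2.95 ± 0.88, adjusted p = 0.0431). No member passed for lymph node stroma (5 measured, median 0.10) or antigen presentation (12 measured, median -0.04).

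**Figure D3:**
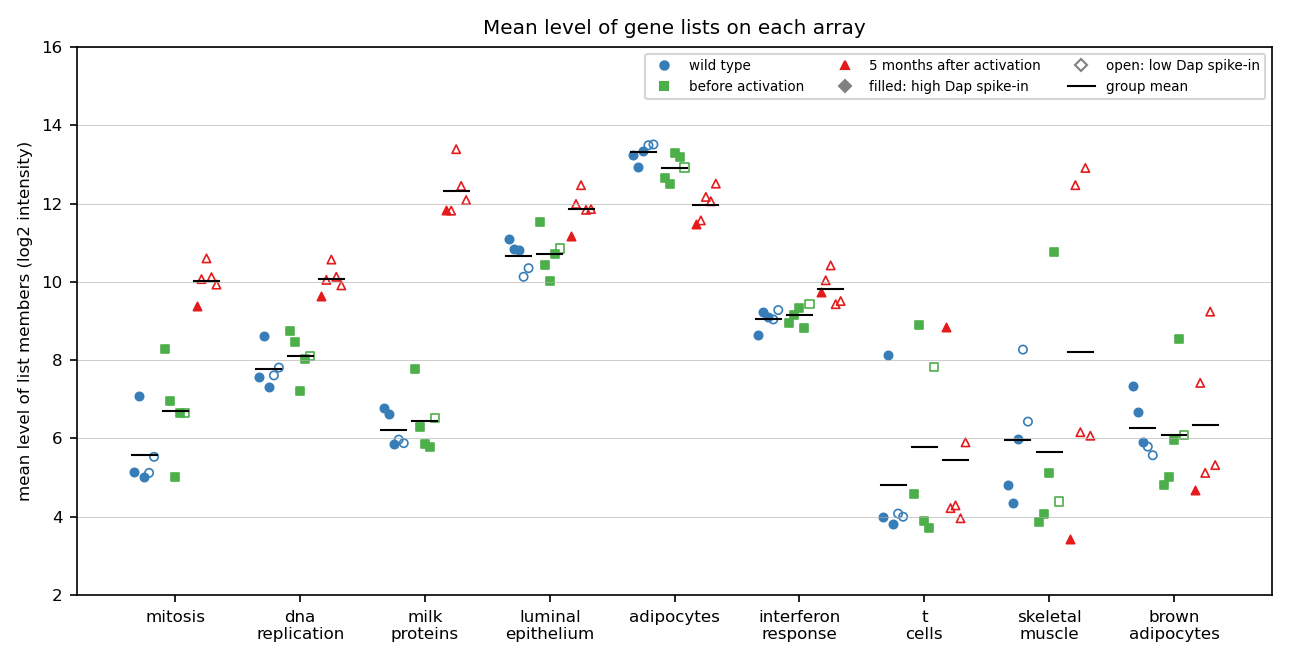
Mean level (log2 intensity) of the members of 9 gene lists on each of the 15 arrays, with the symbols of the plot of gene levels. Mitosis, DNA replication and milk protein means are above all controls on all arrays of 5M, T cell genes are high on replicate 1 of 5M and 3 controls, and skeletal muscle genes on replicates 2 and 4 of 5M and most, among the controls, on before_activation replicate 4.

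The remaining lists gave few passing genes, beside 8.73% higher and 8.03% lower over all genes. Hypoxia and glycolysis had 2 of 21 higher, Car12, a membrane carbonic anhydrase (3.35 ± 0.46, called), and Ndrg1 (1.54), and 4 lower (median -0.42). Immediate early genes had 2 of 18 higher, Fosl2 (0.88) and Jund (0.71; median 0.54). Neuroendocrine genes had 1 of 11 lower (Syp, -0.94; median -0.10), and the nerve list 1 higher (Sox10, 2.1) and 1 lower (Pmp22, -1.53) of 5. Brown adipocytes (9 measured, median 0.38), epidermis (15, median -0.49), erythrocytes (4, median 0.00) and skeletal muscle (18, median 2.85) had none. Of 9 reference genes (median 0.05) 1 passed, Tubb5 (0.67, adjusted p = 0.026). Actb stood at 15.35, 14.82, 15.06, 14.45 and 15.04 against 14.25, 14.86 and 15.61 and differed by 0.03 ± 0.22 (adjusted p = 0.931), though its second probe set differed by 0.91.

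The glands of 5M differed among themselves in the level of the called genes. Over the 250 genes called higher, replicate 3 had the highest level of the group for 212 and replicate 1 the lowest for 211. These genes were called on the same arrays, and the ranking of the replicates over all genes was not counted. The mean level of the mitosis list was 9.39, 10.07, 10.60, 10.12 and 9.93 on replicates 1 to 5 (controls 5.02 to 8.28), that of DNA replication 9.65, 10.05, 10.57, 10.13 and 9.91 (controls 7.22 to 8.74), and that of milk proteins 11.83, 11.82, 13.39, 12.45 and 12.09 (controls 5.78 to 7.77). Replicate 3 led all 3 lists, and every array of 5M lay above every control. Replicate 1 was also the array with the high Dap level and the T cell genes, and the part of either in its lower values was not tested. Skeletal muscle genes and Ucp1, the uncoupling protein of brown fat, had the widest spread within 5M. Acta1, the skeletal actin, stood at 3.17, 16.03, 10.41, 16.22 and 10.40 (controls 5.64 to 15.40), and Ucp1 at 2.98, 11.07, 2.9, 14.45 and 4.61 (controls 2.78 to 13.47).

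Comparing 5M with 4M and 2M asked whether expression still changed over these months. Against 4M no probe set was called by limma or by the Welch test of the methods, while 2728 of 45037 (6.06%) and 2651 had an unadjusted p of at most 0.05. In limma 1 probe set passed an adjusted p of 0.05, Slc38a10 (-0.58, adjusted p = 0.00612). Replicate 2 of 4M stood apart in the 3′ minus 5′ difference of the Actb control probe sets (5.40, other arrays of 4M 2.05 to 2.67). The study used the 3′ to 5′ ratio of beta-actin as a quality measure. This array also had the highest mitosis (10.28) and milk protein (13.15) list means of 4M. Without it none was called, and 2 probe sets were lower at an adjusted p of 0.05 in limma. Against 2M none was called and none passed 0.05 in either test (3975 probe sets, 8.83%, at an unadjusted p of at most 0.05 in limma and 2964 in the Welch test, smallest adjusted p 0.0726 in limma). With replicate 1 of 5M left out, 213 probe sets were higher and 45 lower than in 2M at an adjusted p of 0.05. Still none was called. Counted as genes, 137 of 18194 were higher and 27 lower, and 8 of the 54 mitosis genes were higher. The mitosis list had a median of 0.62 against 4M and of 1.09 against 2M, the replication list 0.41 and 0.72, and the milk proteins -0.01 and 0.31, beside 0.03 and 0.02 over all genes. Apart from replicate 1, the arrays of 5M had a low Dap level and those of 2M and 4M a high one, so that time and labelling class cannot be told apart for them. Lymphoid genes also moved with the comparison to 2M: the T cell list mean was 3.82, 8.18, 8.63, 7.28 and 7.02 on replicates 1 to 5 of 2M, high on 4 of them, and high on replicate 1 of 5M alone. The medians of 5M minus 2M were -1.68 for T cells, -1.94 for B and plasma cells and -1.28 for lymph node stroma, and without replicate 1 of 5M they were -2.53, -2.81 and -1.87. Their part in the probe sets that passed without replicate 1 was not tested.

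Tumours differed from the glands of 5M in 1504 genes that were higher (8.27%, 61 or 0.335% called) and 1926 that were lower (10.6%, 530 or 2.91% called). The tumour arrays all had a high Dap level. Mitosis genes were higher still in tumours for 53 of 54 (median 1.79) and replication genes for 37 of 40 (median 1.33), beside -0.03 over all genes. Plk4, the kinase of centriole duplication, was higher by 1.84 (adjusted p = 0.000164). Against replicate 1 of 5M alone, which shares the high Dap level, the median difference was 2.4 for mitosis and 1.72 for replication genes. With a single array of 5M these medians carry no test. Of the 250 genes called higher in 5M, 144 were higher again in tumours and 10 lower, in comparisons that share the arrays of 5M. The collagenase Mmp13 (6.67 ± 1.22), C1qtnf3 (5.41 ± 0.94), Ctxn1 (5.04 ± 0.60), the collagens Col11a1 (4.92 ± 0.90) and Col8a2 (4.73 ± 0.52) and the amino acid transporter Slc38a3 (4.6 ± 0.56) were among the genes with the largest called increases.

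Genes of fat, basal cells, hormone sensing cells and vessels were lower in tumours than in the glands of 5M. Adipocyte genes were lower for 26 of 27 (17 called, median -4.87), basal and myoepithelial genes for 9 of 19 (6 called, median -1.74), hormone sensing genes for 6 of 11 (4 called, median -2.2), and endothelial genes for 14 of 19 (4 called, median -1.61). Milk protein genes were lower for 5 of 16 (3 called, median -3.41), with no member higher. Csn1s2b differed by -5.13, adjusted p = 0.000373, and Csn3 by 0.23, adjusted p = 0.358. The lowest called genes were Glycam1, a mucin-like protein of milk and of lymph node vessels (-7.5 ± 1.16), the protease inhibitor Timp4 (-7.1 ± 0.55), the lectin Cd209b (-6.89 ± 0.84), Akr1c14 (-6.87 ± 0.58), Tmem182 (-6.72 ± 1.08) and Ces1f, a carboxylesterase (-6.67 ± 1.04). Luminal genes had a median of 0.32, with 2 of 25 higher and none lower. Against replicate 1 of 5M alone, which shares the high Dap level, the medians were -4.36 for adipocytes and -1.59 for basal cells. They were -1.55 for hormone sensing cells, -1.65 for endothelium and -2.33 for milk proteins. A single array gives no spread of its own, so these medians carry no test.

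**Figure D4:**
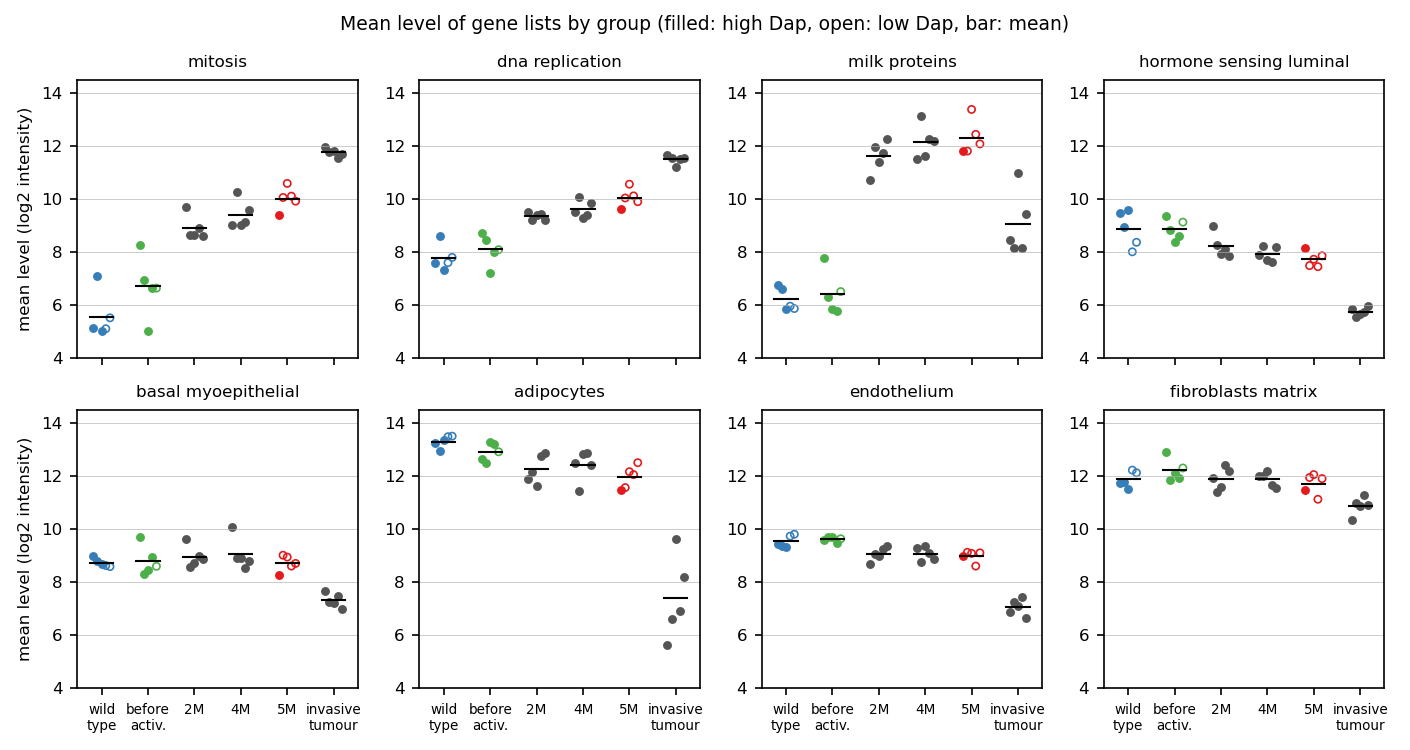
Mean level (log2 intensity) of 8 gene lists on each array of 6 groups, with bars for group means and open symbols for a low Dap level. Mitosis means run from 9.39 to 10.60 in 5M and from 11.57 to 11.96 in tumours, the group averages of milk proteins are highest in 2M, 4M and 5M while 1 tumour (11.01) exceeds the lowest array of 2M (10.74), and adipocyte means run from 11.49 to 12.51 in 5M and from 5.65 to 9.62 in tumours.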

How the data were processed

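RNA of whole mammary glands and tumours (50 ng total RNA per sample, amplified and labelled in 2 cycles) was hybridised to Affymetrix Mouse430_2 arrays, 1 mouse per array. The authors summarised the scans with GCRMA in GeneSpring and deposited linear intensities for 45101 probe sets on 40 arrays. The deposited series table holds the same log2 values minus the median of each probe set over the 40 arrays (largest deviation 1.04e-06) and served as an alternative. GCRMA brings dim probe sets close to a common floor, and the size of their fold changes depends on it. With 16 added before log2, the difference of Csn2 between 5M and the controls was 10.86 rather than 12.71. That of Exo1 was 3.09 rather than 4.90.

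The intensities were taken as log2 and 64 control probe sets were left out, leaving 45037. Groups were fitted pairwise with limma 3.58.1 (R 4.3.3), without a replicate block, and p-values were adjusted by Benjamini-Hochberg. The methods' t-test is the Welch test, run as an alternative. Scripts were tested on simulated data. Of the probe sets 34945 have 1 gene symbol in the platform annotation, 932 several and 9160 none here. Of those with 1 symbol, 34741 were matched by gene ID to RefSeq (GRCm38.p6) and took the symbol given there. A gene is the probe set with exactly 1 symbol and the highest mean over the 40 arrays. Arrays carry no read depth, and their number limits the precision.

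Members of 36 gene lists (716 entries, 666 with a probe set) and the arrays compared were chosen with earlier results of these data known. Genes are named by size of difference among called genes with clone names left out, by the smallest p-values in each list, and by spread within 5M. Chosen after the values were seen were the fits within the low Dap class, with the Dap class as a block, with replicate 1 of 5M alone against the tumours, and without arrays rich in lymphocyte or muscle genes (T cell list mean of 7 or more, or muscle list mean of 10 or more). Of the latter 4 controls and 3 arrays of 5M were left out. No set tests were run.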

Additional observations from a re-analysis of the deposited data

Results flagged for a closer look

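Single arrays that stood apart from the other 4 of their group by Dixon's test (critical value 0.71) were found in 12 of 120 tests, where chance flags about 1 in 20 groups. In 5M these were the Dap spike-in of replicate 1 (9.43, others 3.56 to 4.27) and the endothelium list mean of replicate 4 (8.61, others 8.98 to 9.13). Wild_type replicate 2 was high for T cells (8.14, others 3.81 to 4.08), B and plasma cells (8.97, others 4.38 to 5.44), lymph node stroma (10.59, others 5.67 to 6.47), antigen presentation (12.16, others 11.07 to 11.32) and mitosis (7.09, others 5.02 to 5.53). The part of lymphoid tissue in its mitosis value was not tested.

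The remaining values belonged to other controls. Wild_type replicate 1 was high for epidermis (7.15, others 3.41 to 4.36), and wild_type replicate 3 low for p53 targets (8.84, others 8.94 to 8.97). Before_activation replicate 2 was high for neuroendocrine genes (5.37, others 4.69 to 4.85), replicate 4 for skeletal muscle (10.77, others 3.86 to 5.11), and replicate 5 had a low Dap level (3.51, others 10.19 to 10.50).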

How the results depend on the processing

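Against 371 probe sets called higher and 19 called lower in 5M, the count higher was 136 with before_activation alone as controls, 37 within the high Dap class (1 array of 5M, assumed to vary like the controls) and 33 without the arrays rich in lymphocyte or muscle genes. The count lower was 30 with all 40 arrays in one fit, 5 with 16 added before log2, 43 with wild_type alone, 6 with before_activation alone, 30 with Dap as covariate, 7 within the high and 4 within the low Dap class, 32 with the Dap class as block, and 0 without the rich arrays. Leaving out 1 array gave 294 to 410 higher and 7 to 30 lower, the latter 7 without 5M replicate 1, 11 without 5M replicate 2 and 30 without before_activation replicate 1. The replicate block gave 335 and 16. Replicate numbers did not pair the arrays (correlations of deviations -0.40 to 0.63, own number best for 4 of 15), and the block called none against 4M or 2M. Against 2M, all 40 arrays in one fit called 4 higher.

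Tumours had 223 probe sets called higher and 837 lower than 5M. Higher were 74 by the Welch test, 416 with all arrays in one fit, 60 with the replicate block, 106 with 16 added and 24 within the high Dap class; lower were 310, 314 and 226 by the Welch test, the block and the high Dap class. Without 1 array the counts were 127 to 324 and 535 to 1019, with 127, 129 and 146 higher without 5M replicates 2, 4 and 5 and 535 lower without 5M replicate 5. Of 229 named genes that passed for 5M against controls, none reversed under any alternative; 35 no longer passed by the Welch test, 60 with before_activation alone, 55 within the low and 214 within the high Dap class, and 163 without the rich arrays. The causes were not tested. For dim genes, the size of a change depends on the low end of the scale.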
